A study of Rattus norvegicus with 22 samples.

Results

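The striated myosin heavy chain genes measured here were Myh1, Myh2, Myh3, Myh4, Myh6, Myh7 and Myh8, 7 genes of the 26583 gene names on the array. They were found by their symbol among the non-control probes, which gave 9 of 30367 probes, and each gene was represented by its brightest probe over all arrays. The family was selected on its values in the comparison of tumor with normal tissue, because Myh2 was higher in tumors while a list of muscle genes was lower. The OSCC-minus-normal values of the members, and of the 15 muscle genes below, are therefore given as a description, without a test.

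The samples were tongue pieces from 11 male F344 rats of about 33 weeks of age, identified by the animal numbers 4, 9, 11, 13, 16, 17, 21, 22, 24, 25 and 26. Every rat had drunk water with 4-nitroquinoline-1-oxide (4-NQO), a DNA-damaging carcinogen, at 20 ppm for 10 weeks. Each gave 1 piece of oral squamous cell carcinoma (OSCC) and 1 piece of adjacent tongue that looked normal, so the normal group was also exposed to the carcinogen. Every sample title reads "Untreated" and the treatment label of normal pieces is "none", whereas the deposited protocol and the study's methods take both pieces from treated rats. RNA was hybridized to one-color Agilent arrays, and a level below is the log2 processed signal of a probe minus the 75th percentile of its array over probes, so a level of 0 marks a probe at that percentile.

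Myosin heavy chain is the motor of the thick filament, and the isoform a muscle fibre makes largely sets how fast it contracts. Myh4, Myh1 and Myh2 encode the adult fast isoforms IIB, IIX and IIA, Myh7 encodes the slow isoform, which is also the beta chain of the heart, and Myh6 encodes the cardiac alpha chain. Myh3 and Myh8 encode the embryonic and perinatal isoforms, which muscle makes before birth and again in regenerating fibres. The tongue of the rat is known as a mostly fast muscle.

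The probes are shown first, because the isoforms are alike and each level is read through a probe. How far probes resemble each other does not show whether they tell the isoforms apart. On the rn4 positions of the array annotation, the probes of Myh3, Myh2, Myh1, Myh4 and Myh8 lie in that order on the plus strand of chromosome 10, and those of Myh6 and Myh7 on the minus strand of chromosome 15. The probes of Myh8 and Myh6 and the second, dimmer probe of Myh3 are alike, with capitals where all 3 carry the same base (22 of 44 aligned bases). They lie at chr10:54002239-54002298, chr15:33044576-33044983 and chr10:53800042-53800098, and the Myh6 probe spans 408 bases of the genome, more than its own 60.
Myh8: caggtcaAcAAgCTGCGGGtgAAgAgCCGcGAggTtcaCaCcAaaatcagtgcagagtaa
Myh6: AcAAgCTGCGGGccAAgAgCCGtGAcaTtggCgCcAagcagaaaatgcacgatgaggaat
Myh3, second probe: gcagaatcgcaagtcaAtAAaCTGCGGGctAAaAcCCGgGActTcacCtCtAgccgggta

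The second Myh2 probe and the Myh7 probe are also alike. They lie at chr10:53889275-53889334 and chr15:33073880-33073939, and carry the same base at 29 of 44 aligned bases (65.9%), again in capitals.
Myh2, second probe: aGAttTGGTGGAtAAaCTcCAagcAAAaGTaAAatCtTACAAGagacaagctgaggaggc
Myh7: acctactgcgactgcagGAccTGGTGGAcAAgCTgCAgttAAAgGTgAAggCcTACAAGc

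The brightest Myh2 probe (chr10:53887030-53887089) and the Myh4 probe (chr10:53951729-53951788) carry the levels of those isoforms, and are given in lower case because no shared stretch is marked. The probe of Myh1 and the brightest probe of Myh3, which carry the levels of these genes, are not shown.
Myh2, brightest probe: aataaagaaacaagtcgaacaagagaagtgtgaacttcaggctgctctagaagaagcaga
Myh4: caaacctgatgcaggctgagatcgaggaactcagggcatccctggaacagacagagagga

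Among all pairs of probes of different members, those of Myh2 and Myh7 were the most alike over at least 30 aligned bases. All 9 probes carried an accession that the RefSeq table of assembly GRCr8 gives to the same symbol. Whether a probe also binds transcripts of another isoform was not tested, since no transcript sequences were used here.

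The family split across the pairs. Myh4 and Myh8 were lower in OSCC, Myh1 differed little in the mean, and Myh2, Myh3, Myh6 and Myh7 were higher. In the limma fit over all probes, with calls made at 2-fold or more and an adjusted p under 0.05, 4 members were called higher and 2 lower, where 6.86% and 6.97% of all probes were called in these directions. Since that contrast chose the family, nothing is read from these counts. The median log2 difference over all probes was -0.24. In bulk pieces, fewer muscle cells and less RNA per muscle cell cannot be told apart.

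The arrays differed in ways that bear on every value below. No slide held both tissues, all normal arrays were scanned on 1 day, and 9 of the 11 OSCC arrays were scanned on another, so only animals 4 and 9 had both pieces scanned on the same day. In a fit with scan day as a term, which takes the tissue difference from those 2 pairs, no member was called. The differences there were -3.91 for Myh4, -1.03 for Myh1, 1.06 for Myh2, 4.91 for Myh7, 4.75 for Myh6, 3.93 for Myh3 and -2.39 for Myh8, with SE from 0.90 to 2.31. The muscle level, the mean of 15 genes that all striated fibres use (Ckm, Acta1, Des and others), lay between 3.85 and 4.92 in the normal arrays and between -0.51 and 4.90 in the OSCC arrays. It was higher in the OSCC than in the normal piece of animals 21, 22 and 24 only. Of these 15 genes 13 were called lower and 0 higher, with a median log2 difference of -2.19. Since the fall of a muscle list was part of the choice of the family, nothing is read from these counts. The largest falls were those of Myom1, an M-band protein (-3.03), and Ldb3, a Z-disc protein (-2.98). All 7 leukocyte genes measured were called higher (median 1.76), most of all Itgam and Cd14 of myeloid cells (2.13 and 2.11, adjusted p = 0.0003 and 0.00086), and their mean level ran from -1.45 to 0.05 in normal and from -0.05 to 2.31 in OSCC arrays. Of 7 squamous epithelial genes 1 was called higher (Dsg3, 1.07, adjusted p = 0.041) and 1 lower (Krt15, -2.54, adjusted p = 7e-05), with a mean level from 5.07 to 5.94 in normal and from 3.03 to 5.77 in OSCC arrays. The call of Dsg3 was lost with quantile normalization, the array median, the authors' values and the pairs scanned on different days. The part of these other cells in the heavy chain values was not tested.

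**Figure D1:**
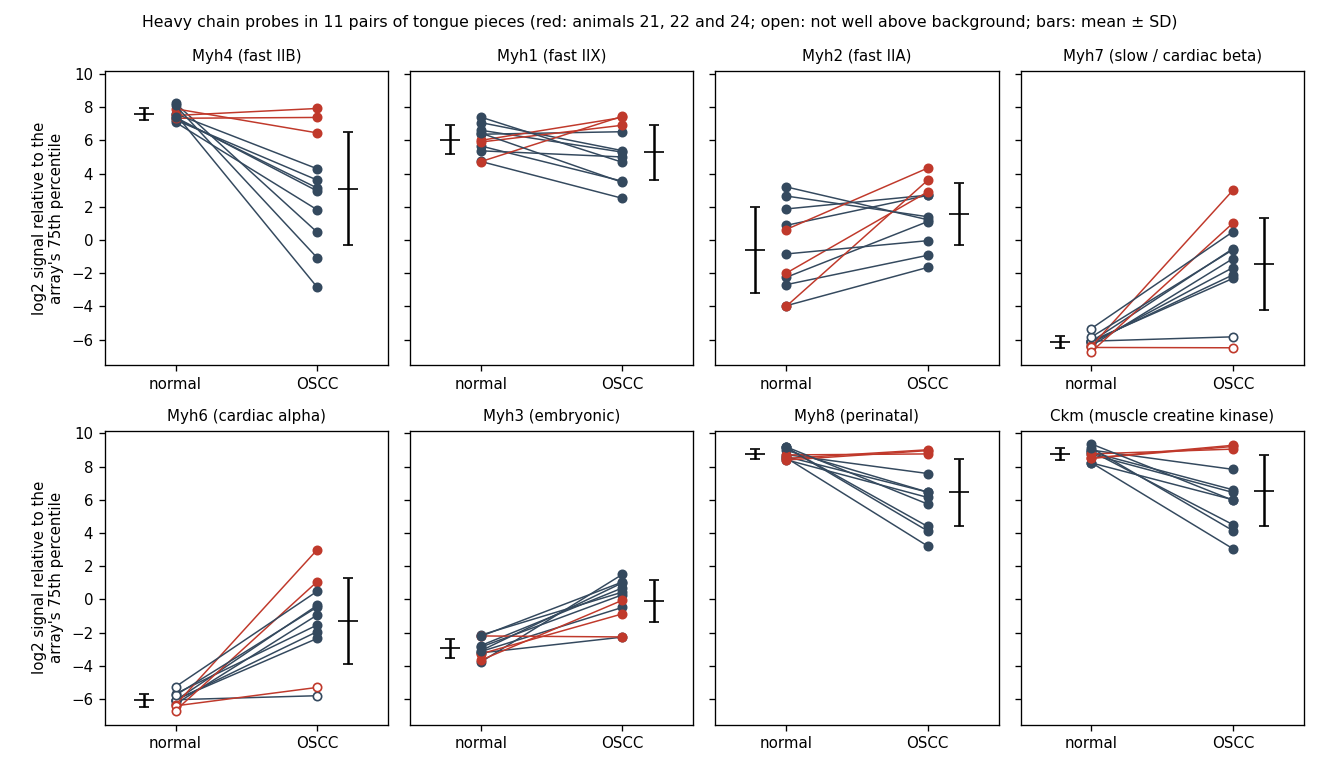
Level of each heavy chain and of Ckm (log2 signal relative to the array's 75th percentile, vertical axis) in the normal and the OSCC piece of each of 11 animals, joined by a line. Animals 21, 22 and 24 are red, open circles are arrays on which the probe was not well above background, and bars are mean ± SD; Myh4 and Myh8 spread downward from a narrow normal range, Myh3, Myh6 and Myh7 spread upward, and Myh2 already spanned -4.0 to 3.20 among normal pieces.

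Myh4, the IIB chain of the fastest fibres, had the widest fall of the family. Its level in normal tissue was 7.09 at the lowest, 7.50 at the median and 8.23 at the highest, and in OSCC -2.84, 3.13 and 7.92. It was lower in OSCC in 9 pairs, and 9 OSCC values lay below the lowest normal array. The mean went from 7.57 ± 0.36 to 3.1 ± 3.40 (SD, n = 11 each), a difference of -4.47 with an SE of 1.06. Animal 13 fell by 10.42 log2 units, and animals 21 and 24 stood at 0.42 and 0.04. Without animals 21, 22 and 24 the mean difference was -6.02.

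Myh1, the IIX chain, differed less. Its levels were 4.72, 6.0 and 7.40 (lowest, median, highest) in normal and 2.51, 5.29 and 7.45 in OSCC tissue, and the groups overlapped. The mean difference was -0.74 with an SE of 0.56, lower in 7 pairs and higher in 4, and it was not called. The animals spread from -2.97 in animal 25 to 2.73 in animal 22. Without animals 21, 22 and 24 it was -1.66 and was called lower.

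Myh2, the IIA chain, moved the other way. In normal tissue its levels were -4.0, -0.84 and 3.20, the widest normal spread of the family (SD 2.58), and in OSCC -1.65, 1.40 and 4.33. The groups overlapped, with 2 OSCC arrays above the highest normal array. The mean rose from -0.59 ± 2.58 to 1.58 ± 1.89 (SD, n = 11 each), by 2.17 log2 units (SE 0.82) or 4.49-fold. It was well above background on 10 normal and all 11 OSCC arrays, the exception being the normal piece of animal 13. It was higher in OSCC in 9 pairs and lower in animals 9 and 26, the animals with the 2 highest normal values. The change ran from -1.98 in animal 26 to 7.60 in animal 22. The second probe of Myh2 gave 2.13 and followed the first over the 22 arrays with r = 0.996.

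The call of Myh2 depended on the setting. The difference was 0.96 and not called without animals 21, 22 and 24, whose OSCC pieces had the 3 highest muscle levels of the tumors. It was 1.42 and not called with another background correction (normexp). It was 2.41 over the 9 pairs scanned on different days, where it was not called. In the pairs scanned on 1 day it was 3.36 in animal 4 and -1.25 in animal 9.

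Myh7, the slow and cardiac beta chain, was well above background on 0 of 11 normal arrays, where its measured values ran from -6.73 to -5.33. In OSCC it was well above background on 9 arrays, and the lowest, median and highest values were -6.49, -1.12 and 3.0. The OSCC arrays of animals 17 and 22 stayed at the background level, while animals 21 and 24 had the highest values, 3.0 and 1.02. With measured means of -6.16 ± 0.36 and -1.46 ± 2.78 (SD, n = 11 each), the bound is at least 5.4-fold higher in OSCC, set against the lowest signal well above background on each normal array. In animals 17 and 22 neither piece passed the background mark, and the measured value was higher in the other 9 pairs. The measured difference was 4.70, and 2.22 with normexp, a correction that lifts the lowest signals.

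Myh6, the cardiac alpha chain, followed Myh7. It too passed the background mark on 9 OSCC arrays and 0 normal ones, with OSCC values of -5.80, -0.94 and 2.99 at the lowest, median and highest, and at least 6.11-fold higher in OSCC (measured means -6.06 ± 0.39 and -1.28 ± 2.58, SD, n = 11 each). Its measured difference was 4.78, and 2.21 with normexp. The pair changes of Myh6 and Myh7 differed by 0.08 log2 units at the median and 1.14 at most. Over the OSCC arrays their levels had r = 0.99. Whether the Myh6 probe also reads Myh7 transcripts was not tested, so the 2 genes are not shown to have risen separately. Of 6 other heart genes, Nppa, Myl7, Tnni3 and Mybpc3 did not pass the background mark on any of the 22 arrays. Nppb, a natriuretic peptide, was called higher (adjusted p = 0.0082), but passed the background mark on 8 OSCC arrays and 1 normal array, so that its measured difference of 4.65 rests mostly on background values in normal tissue. Ryr2, the cardiac calcium release channel, was higher by 1.04 (adjusted p = 0.0028, above background on 8 normal and 10 OSCC arrays), a call that was lost with quantile, array median and normexp scaling. The mean level of the heart list ran from -5.75 to -4.60 in normal and from -5.71 to -4.04 in OSCC arrays.

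Myh3, the embryonic chain, was low but well above background on all 22 arrays. Its levels were -3.77, -3.09 and -2.15 in normal and -2.27, 0.28 and 1.51 in OSCC, and 9 of 11 OSCC arrays lay above the highest normal array. The mean rose from -2.94 ± 0.56 to -0.09 ± 1.28 (SD, n = 11 each), by 2.86 (SE 0.44) or 7.24-fold. It was higher in 10 pairs, with 5.28 in animal 4, and stood at -0.06 in animal 24. A second Myh3 probe gave 2.97 (r = 0.985 with the first over 22 arrays), although it was well above background on 5 normal arrays only. In the pairs scanned on 1 day Myh3 was higher by 5.28 and 2.59, and with normexp its mean difference was 1.88.

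Myh8, the perinatal chain, did not go with Myh3. Its levels were 8.39, 8.70 and 9.19 in normal and 3.21, 6.46 and 9.01 in OSCC. The mean went from 8.76 ± 0.31 to 6.44 ± 2.01 (SD, n = 11 each), a difference of -2.32 (SE 0.66), 4.98-fold lower. It was lower in 8 pairs and higher in animals 21, 22 and 24, by 0.52, 0.07 and 0.58. Whether the Myh8 probe also reads transcripts of other heavy chains was not tested. No member was saturated on any array.

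**Figure D2:**
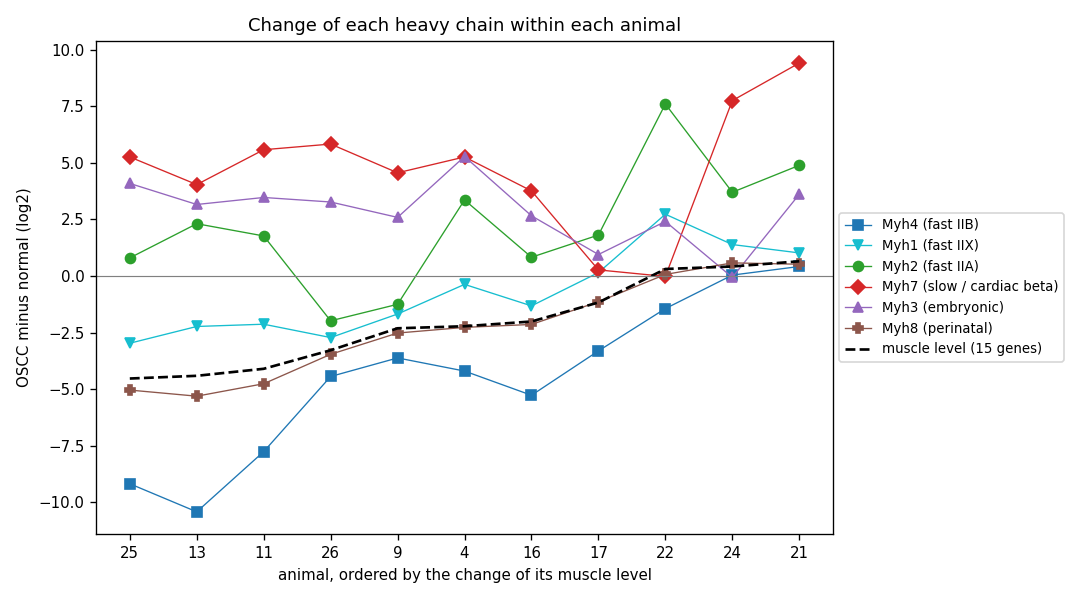
OSCC-minus-normal difference (log2, vertical axis) of 6 heavy chains in each animal, with animals ordered from left to right by the change of their muscle level (dashed line, mean of 15 genes). Myh8 runs along the dashed line, Myh4 runs below it, and Myh7 and Myh3 stay above 0 in the 7 animals whose muscle level fell the most.

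Levels of different probes cannot be compared on an array, so the isoforms were set against Ckm, the creatine kinase of muscle, by their changes only. Ckm itself went from 8.74 ± 0.36 to 6.55 ± 2.13 (SD, n = 11 each), by -2.19 with an SE of 0.66. Relative to Ckm, the change of Myh8 had a mean of -0.12 ± 0.14 (SD, n = 11) and a range from -0.34 to 0.15. With Acta1, skeletal actin, in place of Ckm it was -1.22 ± 0.60 (SD) and below 0 in 11 of 11 pairs. Myh4 was below Ckm in its change in all 11 pairs, with a mean of -2.28 ± 1.52 (SD, n = 11), from -5.23 in animal 13 to -0.35 in animal 21.

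The other members gained on Ckm. Myh2 did so in all 11 pairs, with a mean of 4.36 ± 2.25 (SD), from 1.02 in animal 9 to 7.49 in animal 13, whose normal Myh2 value was at background. With Acta1 in place of Ckm the gain of Myh2 was 3.26 ± 1.98 (SD), above 0 in 11 of 11 pairs but only 0.02 in animal 9. In animals 9 and 26, where Myh2 was lower in OSCC, Ckm was lower by more. Myh1 gained 1.45 ± 0.90 (SD) in 11 of 11 pairs, but 0.35 in 7 of 11 pairs when Acta1 took the place of Ckm. Myh7 gained 6.89 and Myh6 6.97 on the measured values, or 4.49 each with normexp, but their normal values are all at background. In animals 17 and 22 the OSCC values were too, so these 2 pairs hold no measured change. In the other 9 pairs the gain ran from 6.05 to 10.24 for Myh7 and from 5.98 to 10.28 for Myh6. Myh3 gained 5.05 ± 3.16 (SD) in 10 pairs and stood at -0.78 in animal 24. These are again differences of the contrast that chose the family, and carry no test.

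**Figure D3:**
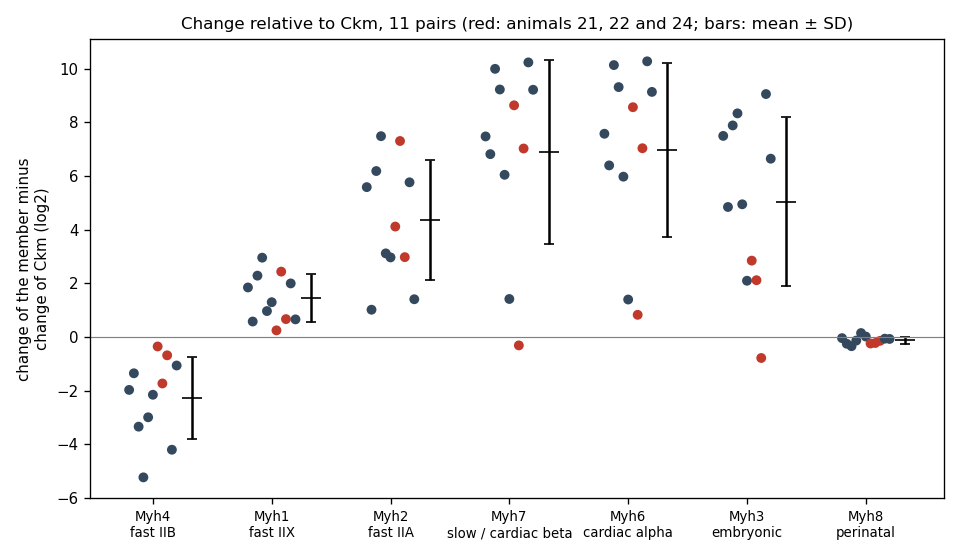
Change of each heavy chain minus the change of Ckm in the same animal (log2, vertical axis), 1 point an animal with animals 21, 22 and 24 in red, and mean ± SD as bars. Myh8 sits at -0.12 with little spread (-1.22 with Acta1 as the reference), all Myh4 points are below 0, and all Myh2 points are above 0.

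Within OSCC tissue alone, how an isoform follows the muscle level is a question the selection did not use. Each member was correlated with the muscle level over the 11 OSCC arrays and over the normal arrays, 14 relations in all, with two-sided permutation tests of 100000 resamples and Benjamini-Hochberg adjustment. In OSCC the 3 adult fast chains and Myh8 rose with the muscle level. Pearson's r was 0.97 for Myh4, 0.99 for Myh1 and 1.00 for Myh8, each with p = 1e-05, the smallest that the permutations can give (adjusted p = 4.7e-05). Spearman's rho was 0.94 (p = 8e-05), 0.96 (p = 2e-05) and 0.99 (p = 1e-05).

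Myh2 belonged to this group inside the tumors, although its mean differed from normal in the other direction. It had r = 0.94 (p = 2e-05, adjusted p = 7e-05, permutation test) and rho = 0.94 (p = 5e-05). Without the 2 arrays farthest from the median muscle level, r was 0.95 for Myh4, 0.99 for Myh1, 0.96 for Myh2 and 1.00 for Myh8. Myh4 changed by 1.73 log2 units for each unit of muscle level, Myh1 by 0.87, Myh2 by 0.94 and Myh8 by 1.05, with SE of 0.15, 0.05, 0.11 and 0.03. Over the 9 OSCC arrays of 1 scan day r was 0.98, 0.99, 0.94 and 1.00.

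For the slow, cardiac and embryonic chains no relation with the muscle level passed in OSCC. Myh7 had r = -0.04 (p = 0.90, adjusted p = 0.97, permutation test) and rho = 0.00 (p = 1.0), and Myh6 r = -0.01 (p = 0.98) and rho = 0.02 (p = 0.97). Without the 2 arrays farthest from the median r was -0.45 and -0.42. Myh7 was at 3.0 and 1.02 in 2 of the 3 OSCC pieces with the highest muscle level, and at background in the third, that of animal 22. Animal 17, at a muscle level of 3.29, was at background too, so the r of Myh7 and Myh6 each include 2 background values. Over the 9 OSCC arrays with Myh7 above background, r with the muscle level was not computed. There, r of Myh7 with Myh8 was 0.66 (p = 0.055, adjusted p = 0.17, permutation test) and rho 0.38 (p = 0.31), which did not pass. With Myh4 r was 0.73 (p = 0.025, adjusted p = 0.095, permutation test) and rho 0.57 (p = 0.12). With Myh1, Myh2 and Myh3 r was 0.61, 0.48 and -0.25, and none of these relations passed after adjustment. For Myh3, r was -0.65 (p = 0.030, permutation test) and rho -0.65 (p = 0.034), which missed the threshold after adjustment (adjusted p = 0.052). Without the 2 farthest arrays r was -0.80, and over the 9 OSCC arrays of 1 scan day -0.68 (p = 0.051, permutation test). A relation of either sign is not shown to be absent at this number of arrays.

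Among normal arrays the muscle level had a gap of 31.8% of its range, and the relations were computed within the larger cluster of 9 arrays. Myh8 had r = 0.82 there (p = 0.0015, adjusted p = 0.0035, permutation test), rho = 0.95 (p = 0.00029, permutation test) and r = 0.83 without the 2 farthest arrays. Its r was -0.02 after quantile normalization. For Myh4, Myh1, Myh2 and Myh3 r was 0.24, 0.54, 0.35 and 0.31, with rho of 0.42, 0.43, 0.30 and 0.17 and adjusted p of r from 0.22 to 0.65 in the permutation tests. Myh7 and Myh6 gave 0.92 and 0.85, but both were at background on these arrays and quantile normalization brought r to 0.20 and 0.16, so that nothing is read from them.

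**Figure D4:**
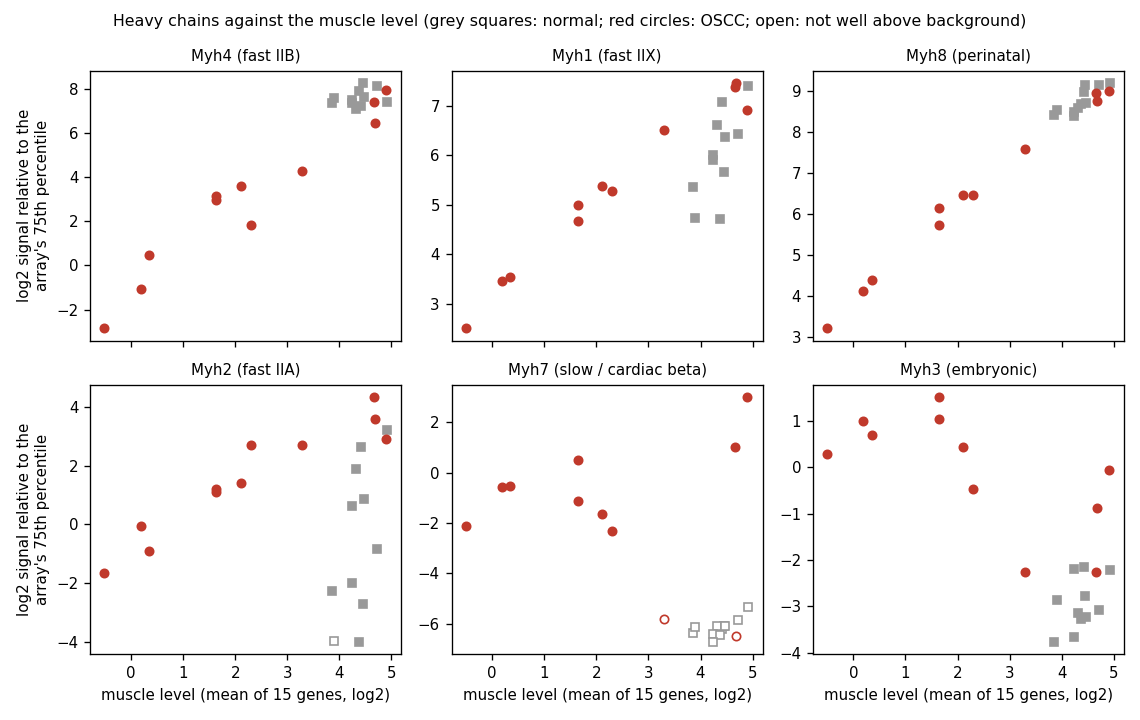
Level of 6 heavy chains (vertical axis) against the muscle level of the same array (mean of 15 genes, horizontal axis), both as log2 signal relative to the array's 75th percentile, with normal arrays as grey squares, OSCC arrays as red circles and values not well above background as open symbols. In OSCC, Myh4, Myh1, Myh8 and Myh2 rise along a line (r from 0.94 to 1.00) and Myh3 tends downward (r = -0.65). Myh7, at background in animals 17 and 22, does not follow the line over all OSCC arrays.

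The members were also correlated with each other within each tissue, a comparison added after the values had been seen, with 42 relations in one family. Myh1 and Myh2 went together in both tissues. In normal tissue r was 0.94 (p = 5e-05, adjusted p = 0.0003, permutation test) and rho 0.96 (p = 3e-05), and 0.91 without the 2 farthest arrays. In OSCC r was 0.96 (p = 1e-05, adjusted p = 0.00011, permutation test) and rho 0.95 (p = 4e-05), and 0.94 without those 2. The normal pieces of animals 13 and 22 had both the lowest Myh1 and the lowest Myh2.

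Myh4 went with Myh2 in OSCC (r = 0.89, p = 0.0004, adjusted p = 0.0021, rho = 0.86 with p = 0.0013, permutation tests, and 0.87 without the 2 farthest arrays). In normal tissue the relation had the other sign and did not pass (r = -0.57, p = 0.072, adjusted p = 0.18, rho = -0.56 with p = 0.076, and -0.67 without the 2). The difference between the tissues was not tested. All members of an array share its scaling, whose part in these correlations was not tested.

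**Figure D5:**
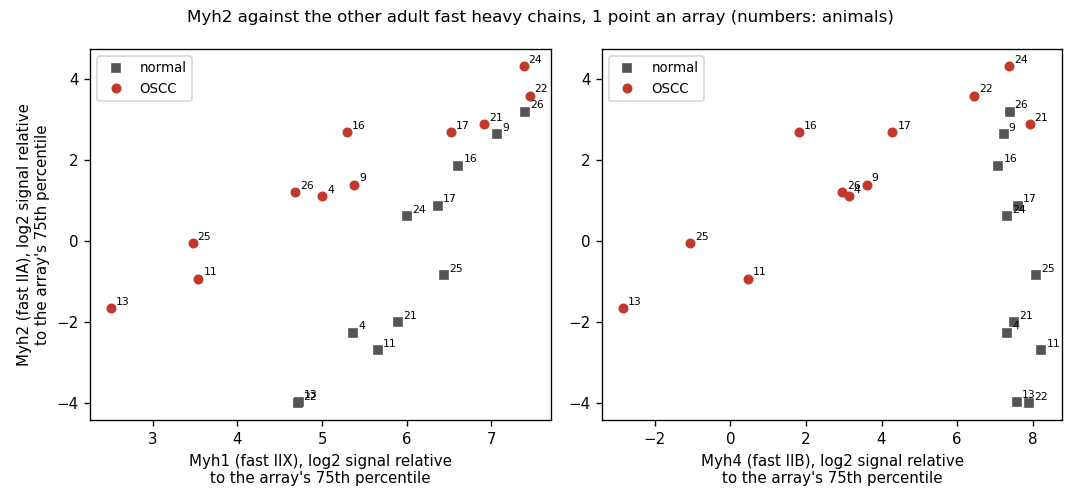
Level of Myh2 (vertical axis) against Myh1 (left) and Myh4 (right), all as log2 signal relative to the array's 75th percentile, 1 point an array labelled with the animal number. Myh2 rises with Myh1 in normal tissue (grey squares, r = 0.94) and in OSCC (red circles, r = 0.96), whereas Myh4 stays between 7.09 and 8.23 over the whole range of Myh2 in normal tissue.

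The adult fast chains lie side by side in the genome, and their promoters share letters. In the RefSeq windows of assembly GRCr8, the 250 bases before the start of Myh2, Myh1 and Myh4 hold 1 common stretch of 20 bases and a TATAAA nearer the start, both in capitals below. The lines run from 20 bases before the stretch to the last base before the start, at chr10:52355549-52355738, chr10:52384726-52384911 and chr10:52421951-52422147 on the plus strand.
Myh2: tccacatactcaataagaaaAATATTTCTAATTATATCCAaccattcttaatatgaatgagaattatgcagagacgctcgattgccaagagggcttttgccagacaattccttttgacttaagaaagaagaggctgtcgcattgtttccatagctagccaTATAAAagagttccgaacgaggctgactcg
Myh1: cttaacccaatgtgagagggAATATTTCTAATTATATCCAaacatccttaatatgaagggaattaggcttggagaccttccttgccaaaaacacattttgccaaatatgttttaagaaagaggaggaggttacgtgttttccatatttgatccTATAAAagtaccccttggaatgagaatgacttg
Myh4: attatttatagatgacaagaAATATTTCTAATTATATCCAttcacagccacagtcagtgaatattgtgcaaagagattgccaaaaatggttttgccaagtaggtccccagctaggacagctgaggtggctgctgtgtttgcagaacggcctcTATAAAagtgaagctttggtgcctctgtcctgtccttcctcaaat

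The stretch begins 170, 166 and 177 bases before the start, and the TATAAA 30, 33 and 45 bases before it. On either strand the stretch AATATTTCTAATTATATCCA was found in 5 of 33469 such windows (0.0149%), which are these 3 and 2 windows of the locus LOC102555216. TATAAA on either strand was in 12.9% of all windows and in those of Myh4, Myh1, Myh2 and Myh3. The E-box letters CANNTG were in 65.5% of windows and in those of Myh4, Myh7, Myh6 and Myh3. A match is a description of the letters only.

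The partners of the heavy chains were taken from lists of genes by role. Most are muscle genes in the contrast that chose the family, in which the fall of a muscle list was used. Their calls and adjusted p are therefore a description and no independent support. Over all probes 6.86% were called higher and 6.97% lower. Of 12 other fast fibre genes 8 were called lower and 0 higher (median -1.81). Actn3 of this list went the other way, by 1.80 and in 8 pairs, but was not called (adjusted p = 0.17). Myoz1, which anchors calcineurin at the Z-disc, fell by 2.64 log2 units (adjusted p = 0.011) and Atp2a1, the fast calcium pump, by 2.25 (adjusted p = 0.017). Of 11 slow fibre genes measured, 5 were called higher and 2 lower (median 0.86). The slow troponins Tnnc1 and Tnnt1 rose by 4.12 (adjusted p = 0.00031) and 4.0 (adjusted p = 0.00021), each in 11 of 11 pairs, Tnnc1 with 6 of 11 normal arrays well above background. Mybpc1, a myosin binding protein of slow fibres, fell by 2.35 (adjusted p = 0.0064), and Myl3, a slow light chain, fell by 1.10 (adjusted p = 0.044). The call of Myl3 was lost with quantile normalization, the 75th percentile of detected probes, normexp, the authors' values and the pairs scanned on different days, which left Mybpc1 as the lower slow gene called.

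Of 12 developmental muscle genes measured, 2 were called higher and 3 lower (median -0.23). Chrng, the fetal subunit of the acetylcholine receptor, passed the background mark on 8 OSCC arrays and 0 normal ones and was at least 1.41-fold higher (measured means -6.13 and -3.40, adjusted p = 0.00054). The call of Chrng was lost with normexp. Tnnt2, a troponin of heart and embryonic muscle, rose by 2.54 (adjusted p = 0.00018), while Actc1, cardiac actin, fell by 1.90 (adjusted p = 0.00011) and Cdh15, a cadherin of muscle precursors, fell by 1.24 (adjusted p = 0.0077). Of 12 genes for chaperones and turnover of the thick filament and its M-band, 1 was called higher and 7 lower (median -1.34). Mstn, myostatin, rose by 1.6 (adjusted p = 0.0064), and Myom3, an M-band protein, and Smyd1, a myosin assembly factor, had differences of -2.96 (adjusted p = 0.0014) and -2.57 (adjusted p = 0.0030), with values above background on 6 and 8 of the 11 OSCC arrays.

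Of 13 regulators of fibre type measured, 4 were called lower and 0 higher (median -0.65). They were Tbx15 with -2.86 (adjusted p = 0.0017), Mef2c with -1.68 (adjusted p = 0.0035), Ppargc1a with -1.62 (adjusted p = 0.013) and Sox6, a repressor of slow genes, with -1.49 (adjusted p = 0.0030). Ppargc1a and Sox6 were well above background on 8 and 4 OSCC arrays. Of 6 heavy chains outside the family 3 were called lower and 0 higher. Myh15 had a difference of -3.33 (adjusted p = 0.00086), with 4 of 11 OSCC arrays well above background, and the smooth muscle chain Myh11 fell by 1.36 (adjusted p = 0.013), beside 5 of 8 smooth muscle genes called lower and 0 higher. Of these Synpo2 and Lmod1 had the largest differences, -2.01 (adjusted p = 0.0092) and -1.73 (adjusted p = 0.019), Lmod1 with 4 OSCC arrays well above background. Myh13, the extraocular chain of the same cluster, was not called (-0.99, adjusted p = 0.23), with 9 normal and 8 OSCC arrays above background.

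The genes whose levels followed each member most closely over the 22 arrays were sought among 10124 symbols well above background on at least 11 arrays. Both tissues enter these correlations, so they are descriptions without a test. Closest to Myh8 were Ckm, Tmod4 and Eno3 (each r = 0.995), Xirp2 and Dhrs7c (each 0.993), and closest to Myh4 were Eno3 (0.986), Dhrs7c (0.983), Stac3 (0.981), Myh8 (0.98) and Pgam2 (0.979). For Myh2 they were Myl2, the slow regulatory light chain (0.881), Adipoq, an adipocyte hormone (0.869), Dysfip1 (0.861), Car3 (0.857) and Napa (0.824). For Myh7 they were Phyhd1 (0.914), Tnnc1 (0.896), Thbs4 (0.889), Stat5b (0.883) and the matrix protein fibromodulin, Fmod (0.869). Myh7 itself was at background in every normal piece and in the tumors of animals 17 and 22. Its r values therefore largely set detected against background values. For Myh3 they were Sox7 (0.933), Hbegf (0.929), Dnajc5 (0.928), Tnnc1 (0.922) and the chemokine Ccl3 (0.922). Some of the genes named were detected mainly in tumors. Ccl3 passed the background mark in 2 normal and 11 OSCC pieces, and Stat5b in 4 and 10. Myl2 did so in 5 and 11, and Tnnc1 in 6 and 11. The rest passed it in 7 or more normal pieces.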

How the data were processed

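Total RNA of 22 tongue pieces was measured on one-color Agilent Rat GE 4x44K v3 arrays. Feature Extraction 9.5.3.1, per the file headers, gave the spot intensity values that the authors deposited as processed signal, after background subtraction and with no scaling between arrays. The authors also deposited the ratio of the processed signal to its array's 75th percentile, of which 100% of values at or above 0.5 matched the scanner files within 5%. Control spots and 9196 outlier spots (0.975%) were left out, and of 30367 probes 13603 were well above background on all arrays. The software's flags, deposited as other values, gave the outlier, background and saturation marks. The 75th percentile of signal ran from 236.8 to 654.9 in normal and from 338.7 to 1414 in OSCC arrays, and the number of arrays limits the precision.

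Log2 signals of a probe's spots were averaged and scaled to the array's 75th percentile, and limma 3.58.1 (R 4.3.3) compared the tissues in a model of animal plus tissue. P-values were adjusted by Benjamini-Hochberg over the 30367 probes. The pairing comes from 1 animal giving both pieces. Deviations of the 2 pieces of an animal correlated between -0.21 and 0.24. On simulated data for this comparison, limma called 196 of the 200 altered probes (3 log2 units, 30299 probes in all) and 5 unaltered ones. For members, SE is the SD of the 11 pair differences over the root of their number. Correlations used scipy 1.17.1.

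The members, lists and tests were chosen with earlier results of these data known. Named genes were all members, Ckm, and the 2 strongest risers and 2 strongest fallers among the called genes of each list. The 5 genes closest to each of Myh2, Myh7, Myh3, Myh8 and Myh4 were also named. Acta1, Des, Ttn, Actn3, Ppargc1a, Sox6, Myh13 and the heart genes at background were added after their values were seen. List sizes count the genes found on the array.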

Additional observations from a re-analysis of the deposited data

How the results depend on the processing

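Over the alternatives to scaling, background correction, deposited values, pairing, slide and left-out animals, the log2 difference of each member kept its sign, and it moved by less than the SD between pairs in all 79 values, those without single animals aside. Leaving out 1 pair at a time gave -4.96 to -3.88 for Myh4, -1.09 to -0.52 for Myh1, 1.62 to 2.58 for Myh2, 4.23 to 5.17 for Myh7, 4.32 to 5.23 for Myh6, 2.61 to 3.15 for Myh3 and -2.60 to -2.02 for Myh8. The members called higher then numbered 3 to 4 and those called lower 2 to 2, with Myh2 losing its call without animal 4, 11, 13 or 21. Without the replicate block, 3 members were called higher and 2 lower, Myh2 being the one lost with its difference of 2.17. Myh2 was also lost with normexp, with slide as a random block, over the pairs scanned on different days, without animals 21, 22 and 24, and with the methods' paired t-test after Benjamini-Hochberg adjustment. With scan day as a term 0 members were called higher and 0 lower, since that fit rests on 2 pairs, and of the lists no gene was called. With the filter on dim probes 2 were called higher, because Myh6 and Myh7 were not tested. No call was counted over the pairs of animals 4 and 9 alone, which leave 1 residual degree of freedom.

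With Acta1 in place of Ckm the relative change was 0.35 for Myh1 and -1.22 for Myh8, and the other relative changes moved by less than their SD. Leaving out 1 pair gave relative changes of -2.47 to -1.98 for Myh4, 1.30 to 1.57 for Myh1, 4.05 to 4.70 for Myh2, 6.56 to 7.61 for Myh7, 6.64 to 7.59 for Myh6, 4.65 to 5.63 for Myh3 and -0.15 to -0.10 for Myh8. The correlation of Myh6 with the muscle level in OSCC was 0.01 on the authors' values. In normal tissue that of Myh1 was 0.70 and passed (adjusted p = 0.032, permutation test) with Ckm as the muscle level. After quantile normalization those of Myh7, Myh6 and Myh8 were 0.20, 0.16 and -0.02. On the authors' values that of Myh7 was 0.93 (adjusted p = 0.054, permutation test), and without animals 21, 22 and 24 those of Myh7, Myh6 and Myh8 were 0.93, 0.82 and 0.71 and no longer passed. Without these animals the OSCC arrays fell into clusters of fewer than 6, and no value was computed.

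The median log2 difference of all probes was -0.24, and -0.03 with quantile normalization, -0.44 with the array median, -0.15 with the 75th percentile of detected probes, -0.08 with normexp and -0.14 on the authors' values. No called list gene changed sign under these scalings. Over the pairs scanned on different days 6 of the 15 muscle genes were called lower, with a median of -2.18. Without animals 21, 22 and 24 it was 15 of 15, and 8 of 13 fibre type regulators. Among these 15 muscle genes is Ttn, whose signal passed the background mark in 0 normal pieces and only 1 tumor. Its call there rests mostly on background values. Ttn is also part of the muscle level, the mean of the same 15 genes. With normexp 2 regulators, 4 partner genes and 1 developmental gene were called lower, and Chrng and Myl2 were no longer called higher.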
